A study of Homo sapiens with 3 samples.

Results

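The 10 genes described here encode proteins that bind, build, shorten or modify microtubules, together with GEF-H1, the RhoA activator that microtubules hold inactive. They are MAP1A, MAP4, STMN1, CKAP5, MAPRE1, MAPRE2, CLASP1, CLASP2, ARHGEF2 and HDAC6, chosen by name for their roles. All 10 are among the 20332 genes of the deposited table and among the 11322 genes whose level averaged at least 1 CPM over the 3 libraries, where CPM is a count scaled to a library total of 1000000. MV-4-11 is an established human leukaemia line known for a rearranged KMT2A gene and a duplicated stretch in FLT3, the receptor of FLT3 ligand. The labels give the genotype as wild type for every group. The untreated control was grown for 1 day, and the other cells were given FL-Fc-DM1 for 1 day at 0.5 nM or at 1.5 nM. In this agent DM1, a tubulin-binding maytansinoid, is, as its name is read here, coupled to a fusion of FLT3 ligand with an Fc domain. Each group is 1 library, all labelled as the same line, so no value has a replicate behind it, no test was possible, and every ratio compares libraries rather than conditions.

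Microtubules grow and shrink mainly at their plus ends by gain and loss of tubulin dimers. Structural microtubule-associated proteins brace the lattice, stathmin holds dimers away from the polymer and promotes collapse, and a polymerase, the end-binding proteins and the CLASPs act at the growing end. Maytansinoids block assembly, and the loss of polymer sets GEF-H1 free to load RhoA with GTP. HDAC6 removes the acetyl group that marks long-lived microtubules. Most of this control is exerted on protein, whereas only messenger RNA was measured here.

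The libraries held 22329953 estimated counts in the untreated cells, 16427206 at 0.5 nM and 16864857 at 1.5 nM. The table numbers its treated columns without printing a dose. They were taken in the order of dose, so all values for 0.5 nM and 1.5 nM would trade places if that reading were wrong. Markers of a myeloid leukaemia were present, with 10 of 11 measured and a summed level of 3082 to 3689 CPM. Most of that sum was LYZ, with 2022 CPM in the untreated cells, 1861 at 0.5 nM and 2510 at 1.5 nM. CD14, the marker below the expression minimum, had 6, 1 and 3 counts in that order. B lymphoid markers, which the labelled B-myelomonocytic origin would include, summed to 1.23 to 2.24 CPM, and MS4A1 had 0 counts in each library. T lymphoid and fibroblast markers summed to at most 1.09 CPM. Brackets give exact 95% intervals that cover counting error only.

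Of the 9 genes with a mean above 30 CPM, STMN1 had the lowest ratio to the control and HDAC6 the highest. Their promoters are printed for that reason, as windows from 250 bases before to 50 bases after a transcript start (RefSeq, GRCh38.p14, 5′ to 3′ on the gene's strand). Capitals mark E2F-type letters (TTTGGCGC or TTTCCCGC), the CCAAT box (CCAAT) and the cell cycle homology region or CHR (TTTGAA), searched on both strands. RefSeq gives 3 windows for STMN1, of which the pair holding E2F-type letters are shown, at chr1:25906370-25906669 and chr1:25906831-25907130, both on the minus strand. For HDAC6 it also gives 3 windows, of which the first is shown, at chrX:48801817-48802116 on the plus strand.
STMN1 window 1: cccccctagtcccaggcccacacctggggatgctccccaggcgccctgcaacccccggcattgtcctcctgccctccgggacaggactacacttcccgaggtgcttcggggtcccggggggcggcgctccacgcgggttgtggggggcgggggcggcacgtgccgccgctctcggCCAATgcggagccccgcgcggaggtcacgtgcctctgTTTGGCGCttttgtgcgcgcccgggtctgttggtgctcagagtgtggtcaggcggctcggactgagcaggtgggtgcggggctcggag
STMN1 window 2: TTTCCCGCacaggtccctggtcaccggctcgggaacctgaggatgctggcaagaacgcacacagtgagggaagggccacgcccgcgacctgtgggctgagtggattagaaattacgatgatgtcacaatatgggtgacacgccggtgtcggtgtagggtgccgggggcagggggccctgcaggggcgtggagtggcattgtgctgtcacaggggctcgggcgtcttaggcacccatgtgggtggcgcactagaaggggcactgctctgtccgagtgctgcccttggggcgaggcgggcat
HDAC6 window 1: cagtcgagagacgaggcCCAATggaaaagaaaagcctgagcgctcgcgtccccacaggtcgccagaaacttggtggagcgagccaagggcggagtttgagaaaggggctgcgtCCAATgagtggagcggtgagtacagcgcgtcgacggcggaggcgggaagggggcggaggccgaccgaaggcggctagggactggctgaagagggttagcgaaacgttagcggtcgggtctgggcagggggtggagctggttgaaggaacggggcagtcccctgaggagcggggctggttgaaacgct

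In STMN1 window 1 the E2F-type letters began 38 bases and the CCAAT box 75 bases before the start, and in window 2 the E2F-type letters were the first bases of the window, 250 before the start. The HDAC6 window held CCAAT 137 and 233 bases before the start. Another HDAC6 window overlaps it and holds the same pair of boxes, 19 and 115 bases before its own start. Both windows are counted below, so this pair enters the CCAAT count more than once. The remaining HDAC6 window holds none of the letters that are capitalised. Over the 22 windows of the 10 genes, 3 held E2F-type letters, the last of them in 1 of 4 windows of ARHGEF2, against 2.27% of all 35116 windows. CCAAT stood in 11 of the 22 windows against 34.6% of all, and CHR letters in 5 of 22 against 15.2%. The GC box (GGGCGG, not capitalised) stood in 14 of 22 against 15786 of 35116. CKAP5 held 2 CCAAT and 2 CHR matches in its window. These matches describe letters in the windows and no binding was measured.

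The levels of the 10 genes spanned more than 3 orders of magnitude. On the TPM scale, which divides by gene length and so allows levels of different genes to be set side by side, the control had STMN1 at 1194 TPM, MAPRE1 at 212.9, CKAP5 at 128.4, CLASP2 at 69.2, MAP4 at 66.2, ARHGEF2 at 63.6, MAPRE2 at 25.8, HDAC6 at 21.996, CLASP1 at 18.9 and MAP1A at 0.637 TPM. STMN1 alone made up 66.3% of the summed TPM of the 10 genes without treatment, 62.9% at 0.5 nM and 61.6% at 1.5 nM. STMN1, MAPRE1 and CKAP5 led and CLASP1 and MAP1A came last in all 3 libraries. In the control the counting intervals of neighbours overlapped for CLASP2 with MAP4, [67.2, 71.2] and [64.1, 68.3] TPM, and for MAP4 with ARHGEF2, [61.1, 66.2] TPM. ARHGEF2 stood above MAP4 at both doses and above CLASP2 at 1.5 nM, and HDAC6 stood above MAPRE2 at both doses. At 0.5 nM the intervals overlapped for ARHGEF2, [64.9, 71.2] TPM, with MAP4, [63.8, 68.8] TPM, and for HDAC6, [24.5, 28.4] TPM, with MAPRE2, [23.2, 26.9] TPM. At 1.5 nM the intervals of ARHGEF2, [71.9, 78.7] TPM, and CLASP2, [68.6, 73.3] TPM, overlapped, while those of HDAC6, [25.5, 29.4] TPM, and MAPRE2, [21.1, 24.4] TPM, did not. ARHGEF2 and MAPRE2 are also, of the 9 members with 100 or more counts, those with the largest shifts between counts and TPM at 1.5 nM, as given beside ARHGEF2.

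**Figure D1:**
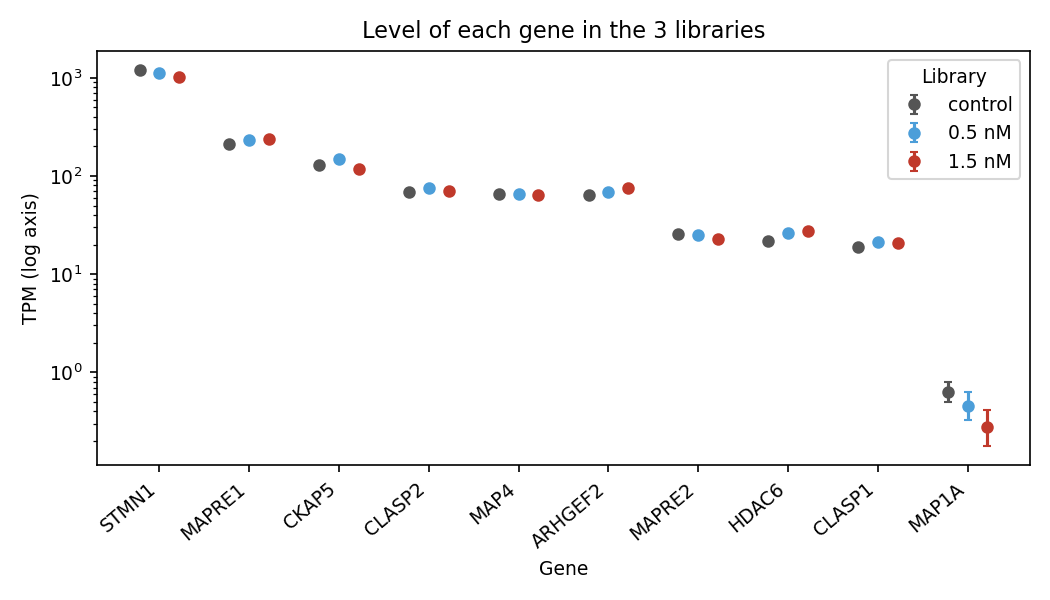
Level of each gene in the control (grey), 0.5 nM (blue) and 1.5 nM (red) library in TPM on a log axis, with exact 95% counting intervals, which are smaller than the points for most genes. STMN1 stood above 1000 TPM in each library and MAP1A below 1 TPM.

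By their median, the genes stayed close to the control. The median log2 ratio of CPM of the 10 genes was 0.00 at 0.5 nM, -0.03 at 1.5 nM and 0.00 at 1.5 nM against 0.5 nM, where all 11322 genes had medians of 0.00 in each comparison. In both comparisons with the control, 7 of the 10 genes lay within the middle 50% of all genes, which ran from -0.11 to 0.12 at 0.5 nM and from -0.14 to 0.16 at 1.5 nM. A gene was counted as higher from 25% above the control's level and as lower from 20% below it, the same ratio in both directions and 0.32 on the log2 scale; 2-fold was the stricter limit. Both are limits of size and not tests. At 0.5 nM no member was 25% higher, where 7.26% of all genes were, and 1 was 20% lower, MAP1A, where 4.52% were. At 1.5 nM 1 member was 25% higher, HDAC6, against 12.0% of all genes, and 1 was lower, MAP1A, against 8.96%. MAP1A was also the only member that was 2-fold lower at 1.5 nM, as were 0.574% of all genes, and none was 2-fold lower at 0.5 nM (0.23% of all). No member was 2-fold higher in either comparison, against 0.53% of all genes at 0.5 nM and 1.47% at 1.5 nM. A second background is given for well-counted genes. Among the 6160 genes averaging at least 30 CPM, a minimum chosen after seeing the data, 4.16% were 25% higher and 5.57% were 20% lower at 1.5 nM, and of the 9 members there 1 was higher and 0 were lower. At 1.5 nM 9.45% of these genes lay below STMN1, 76.6% below CLASP1, 80.1% below MAPRE1 and 96.1% below HDAC6. Those members lay outside the middle 50% of this background, and the other members in it lay inside. At 0.5 nM only STMN1 and HDAC6 lay outside it, with 12.1% and 96.9% below.

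**Figure D2:**
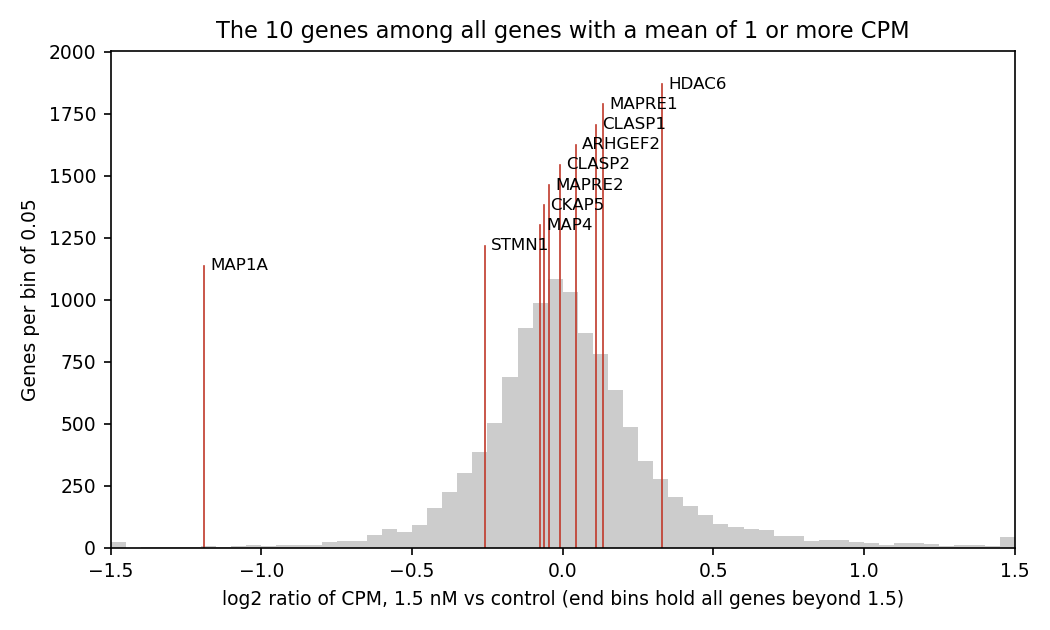
Distribution of the log2 ratio of CPM at 1.5 nM against the control over 11322 genes (grey bars, bins of 0.05), with the 10 genes as red lines of arbitrary height. MAP1A lies in the lower tail, with 0.309% of all genes below it, and HDAC6 has 88.3% of all genes below it.

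The structural microtubule-associated proteins differed in level and in ratio. MAP4, the broadly expressed member that stabilises the interphase lattice, had 177.0 CPM in the untreated cells, 167.0 at 0.5 nM and 168.1 at 1.5 nM. Both treated libraries were slightly below the control and close to each other. Its log2 ratio was -0.08 [-0.15, -0.01] at 0.5 nM and -0.07 [-0.14, -0.00] at 1.5 nM, and on the TPM scale the first was 0.00.

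MAP1A (ENSG00000166963), known mainly from neurons, where it links microtubules to other cytoskeletal parts, was barely expressed. The control had 74 counts of it, the 0.5 nM library 39 and the 1.5 nM library 24, which equal 3.36, 2.36 and 1.41 CPM. The intervals of the control, [2.64, 4.22] CPM, and of 1.5 nM, [0.905, 2.10] CPM, did not overlap, while that of 0.5 nM, [1.68, 3.23] CPM, overlapped both. Its log2 ratio was -0.49 [-1.11, 0.07] at 0.5 nM, -1.19 [-1.98, -0.57] at 1.5 nM and -0.70 [-1.54, 0.03] between the doses. The prior count of 2 shrinks these ratios, and without it the 1.5 nM value was -1.25. By TPM it was -1.21 as deposited and -0.97 with a pseudocount of 0.1, which takes it short of 2-fold. In bulk RNA, fewer cells that express a gene and less RNA per cell cannot be told apart, which holds for every ratio here.

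Markers of epithelial and adherent cells also differed between the libraries that give the MAP1A ratio. The 10 markers summed to 36.4 CPM in the untreated cells, 37.9 CPM at 0.5 nM and 10.3 CPM at 1.5 nM. Of the 6 measured, 5 were past the lower limit at 1.5 nM, where 8.96% of all genes were. They were IRS4, DSP, AMOT, PLS3 and KRT18, while KRT8 was 25% higher, where 12.0% of all genes were. The list was chosen with earlier results of these data known, so this count describes it and is not a test. At 1.5 nM 6 of the 10 had 0 counts, as did 2 in each other library. In the order control, 0.5 nM and 1.5 nM, IRS4 had 224, 204 and 0 counts, DSP 32, 27 and 0, and DSG2 21, 18 and 0. AMOT had 157, 120 and 25 and PLS3 278, 198 and 75. IRS4, DSP, DSG2, AMOT and PLS3 were thus present in the first pair of libraries and absent or far lower in the last. DSG2 was below the expression minimum and so is not among the 6 measured. KRT18 had 56, 24 and 31 counts, lowest at 0.5 nM, and its interval at 1.5 nM, [-1.16, 0.18], covered 0. KRT8 had 33, 32 and 44 counts, while EPCAM had 0 in every library, CDH1 at most 1 and KRT19 at most 3. Whether RNA of another line was mixed into the control and 0.5 nM libraries was not tested, and neither was the part of these markers in the MAP1A ratio, the only member ratio past 2-fold.

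The genes whose ratios were nearest to those of MAP1A, among 977 genes of whole counts and similar level and over 3 libraries, were RAB38, IGKC, FAT1, ARVCF and RAI14. Their distances in the plane of both log2 ratios were 0.073 to 0.237. RAB38 had 56, 31 and 18 counts and FAT1, an atypical cadherin gene, 39, 23 and 12.

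The other genes of the MAP1 family were also lower at 1.5 nM, by unlike amounts, and did not share one pattern at 0.5 nM. MAP1S, the form expressed in many tissues, had 31.4, 26.5 and 27.5 CPM, a log2 ratio of -0.24 [-0.42, -0.07] at 0.5 nM and -0.19 [-0.36, -0.02] at 1.5 nM. MAP1B had 17, 19 and 4 counts, below the expression minimum, and log2 ratios of 0.52 [-0.45, 1.61] and -1.36 [-3.74, -0.10]. EML3, of the EMAP-like family, had 0.09 [-0.05, 0.23] at 1.5 nM. Of 18 other structural genes listed, 6 were measured, with medians of -0.06 and 0.00. At either dose 0 of the 6 were past the limits of 25% higher or 20% lower. Of all genes, 7.26% were higher and 4.52% lower at 0.5 nM, and 12.0% and 8.96% at 1.5 nM. So few genes are set little apart by a count of 0.

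STMN1 (ENSG00000117632) encodes stathmin, which binds tubulin dimers and promotes the shrinking of microtubules, and it was the most abundant of the 10. It had 675.9 CPM in the untreated cells, 606.1 CPM at 0.5 nM and 565.3 CPM at 1.5 nM. The 3 counting intervals did not overlap, and the treated libraries were lower in the order of dose. The level was 0.897 times the control at 0.5 nM and 0.836 times at 1.5 nM, log2 ratios of -0.16 [-0.19, -0.12] and -0.26 [-0.29, -0.22]. Neither was 20% lower. The log2 ratio at 0.5 nM was -0.09 by TPM and -0.21 with the trend of ratios on transcript GC content removed, both outside its interval. At 1.5 nM these settings gave -0.22 and -0.23, inside the interval. Of all genes, 16.8% had a lower ratio at 0.5 nM and 12.9% at 1.5 nM, and among genes of 30 or more CPM 12.1% and 9.45% did. The step from 0.5 nM to 1.5 nM was -0.10 [-0.14, -0.06], and it was -0.01 once the trend of ratios on transcript GC content was removed. STMN3, the only other stathmin gene measured, went the other way at 1.5 nM, with 14.9, 14.1 and 19.8 CPM and a log2 ratio of 0.40 [0.18, 0.63]. STMN2 had 0 counts and STMN4 at most 1.

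At the plus end, none of the 5 genes was past the limits of 25% higher or 20% lower by CPM in any comparison. Among all genes of 30 or more CPM, 1.57% were higher and 1.06% lower at 0.5 nM, and 4.16% and 5.57% at 1.5 nM. Between the doses 2.05% were higher and 2.97% lower, so 0 of 5 sets these genes little apart from others of that level. MAPRE1 encodes EB1, which marks growing plus ends and recruits other proteins there. It had 280.3 CPM in the untreated cells, 291.3 at 0.5 nM and 307.6 at 1.5 nM, and the interval at 1.5 nM did not overlap that of the control. The log2 ratios were 0.06 [0.00, 0.11] and 0.13 [0.08, 0.19]. MAPRE2, which encodes EB2, had 44.97, 43.96 and 43.6 CPM with overlapping intervals, and log2 ratios of -0.03 [-0.17, 0.11] and -0.04 [-0.18, 0.09]. By TPM, MAPRE1 was 8.24 times MAPRE2 in the untreated cells, 9.30 times at 0.5 nM and 10.6 times at 1.5 nM. These quotients move with the TPM scale, on which the log2 ratios at 1.5 nM were 0.17 for MAPRE1 and -0.18 for MAPRE2. MAPRE3, the gene of EB3, had 13, 15 and 21 counts, below the expression minimum.

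CKAP5 encodes chTOG, the polymerase that adds tubulin to plus ends and is needed for spindle assembly. Its levels were 370.6 CPM in the untreated cells, 386.4 at 0.5 nM and 354.6 at 1.5 nM. The 0.5 nM library was above the control and the 1.5 nM library below it. The log2 ratios were 0.06 [0.01, 0.11] and -0.06 [-0.11, -0.02], and the ratio between the doses was -0.12 [-0.17, -0.07]. On the TPM scale the values stood further apart, at 128.4, 147.7 and 117.9 TPM, a log2 ratio of -0.3244 between the doses. That is at the edge of the limit of 0.3219 for 20% lower, on a scale on which the median of all genes was itself -0.03.

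The CLASPs bind near plus ends and rescue shrinking microtubules. CLASP1 had 72.6, 76.8 and 78.4 CPM, log2 ratios of 0.08 [-0.03, 0.19] and 0.11 [0.00, 0.22]. CLASP2 had 208.0, 209.6 and 206.8 CPM, log2 ratios of 0.01 [-0.05, 0.07] and -0.01 [-0.07, 0.06]. CLASP2 thus had the ratios nearest to 0 of the 10 genes in both comparisons with the control on the CPM scale. The TPM of CLASP2 was 3.66 times that of CLASP1 in the untreated cells, 3.59 times at 0.5 nM and 3.42 times at 1.5 nM.

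Of the 18 other plus-end and polymerase partner genes listed, 16 were measured, with medians of 0.08 at 0.5 nM and 0.16 at 1.5 nM. At 1.5 nM 2 were 25% higher and 0 were 20% lower, beside 12.0% and 8.96% of all genes. The genes that were higher, CLIP1 and TACC3, both averaged above 30 CPM. Among genes of that level only 4.16% were higher and 5.57% lower, and the list was not counted apart there. CLIP1, which encodes the linker protein CLIP-170, had 32.0, 39.8 and 43.4 CPM and a log2 ratio of 0.44 [0.29, 0.59] at 1.5 nM. TACC3, whose protein carries chTOG to the spindle, had 173.2, 178.2 and 228.0 CPM. It was at the control's level at 0.5 nM and had a log2 ratio of 0.40 [0.33, 0.46] at 1.5 nM, while CKAP5 had -0.06. Among 8 spindle-associated genes, HMMR had 0.50 [0.44, 0.57] and NUSAP1 -0.37 [-0.43, -0.31] at 1.5 nM, and the interval of NUSAP1 does not cover the sharing of reads, since its counts were not whole. Among 7 measured severing and minus-end genes, 1 was 20% lower at 1.5 nM, beside 8.96% of all genes. That gene was FIGNL1, of the fidgetin family, with 62.2, 59.6 and 45.5 CPM and -0.45 [-0.58, -0.32]. KATNAL1, a katanin subunit gene, had -0.19 [-0.43, 0.04].

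ARHGEF2 (ENSG00000116584) encodes GEF-H1, which is inactive while bound to microtubules and activates RhoA once released. Its level hardly differed on the CPM scale, with 110.1 CPM in the untreated cells, 109.0 at 0.5 nM and 113.6 at 1.5 nM and overlapping intervals. The log2 ratios were -0.01 [-0.10, 0.07] and 0.04 [-0.04, 0.13]. On the TPM scale it had 63.6, 68.0 and 75.3 TPM, log2 ratios of 0.10 and 0.24, so the size of the difference depended on the scale.

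That dependence was followed for the 9 members with 100 or more counts. TPM is by definition a count per length, scaled to the library, so a gene's count divided by its TPM should keep the same place relative to the median gene while its length is kept. No source used here gives the lengths, or says whether these counts were the ones divided. At 1.5 nM the quotient of ARHGEF2 was lower by a log2 shift of -0.16, that of MAPRE2 was higher by 0.18 and that of CKAP5 by 0.0965, while MAPRE1 and STMN1 had shifts of 0.00. Shifts of 0.1 or more were found for 2 of the 9 members at 1.5 nM, where 15.7% of 9521 genes had one, and for 0 of 9 at 0.5 nM, where 14.1% of 9483 genes had one. The values for transcripts of a gene were not analysed here. For ARHGEF2, 7.57% of genes had a larger shift in size at 1.5 nM, and for MAPRE2 6.12%.

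**Figure D3:**
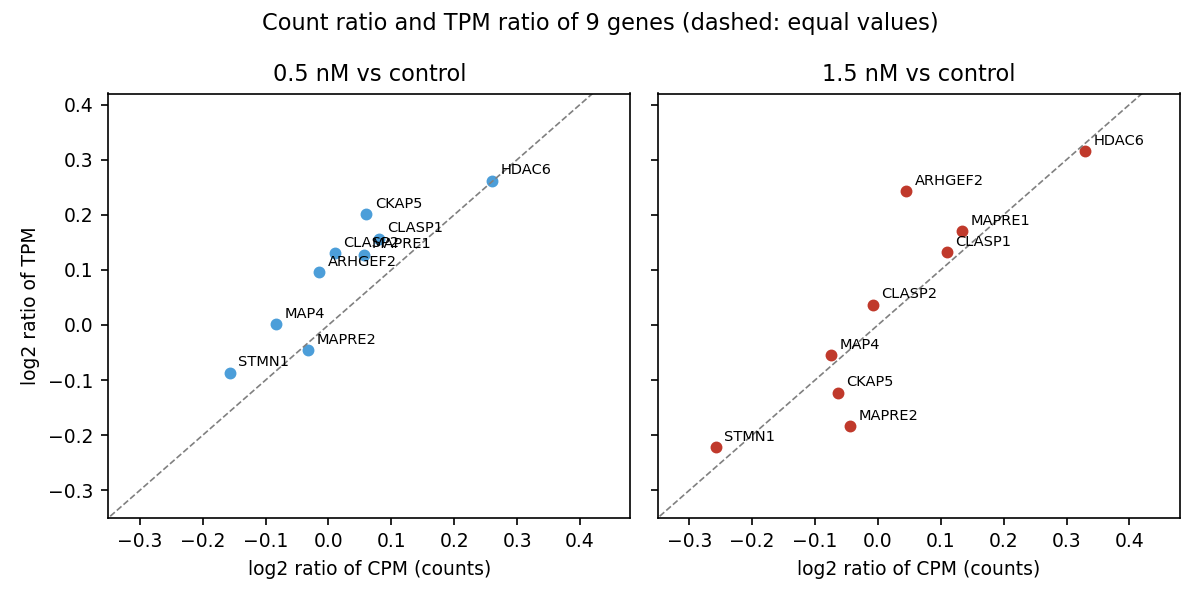
Log2 ratio of CPM (x axis) against log2 ratio of TPM (y axis) for the 9 genes with 100 or more counts, at 0.5 nM (left) and 1.5 nM (right) against the control. At 1.5 nM ARHGEF2 lies above the line of equal values, at 0.04 and 0.24, and MAPRE2 below it, at -0.04 and -0.18.

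Of the 21 genes that bind GEF-H1 or act below RhoA, 20 were measured, with medians of 0.03 at 0.5 nM and 0.05 at 1.5 nM. At each dose 2 of the 20 were 25% higher and 0 lower, where 7.26% of all genes were higher and 4.52% lower at 0.5 nM, and 12.0% and 8.96% at 1.5 nM. RHOA had 718.6, 706.6 and 683.0 CPM, and its counts were not whole, so reads may be shared with other genes. RHOC, a close relative of RHOA, had 84, 82 and 112 counts and a log2 ratio of 0.77 [0.37, 1.22] at 1.5 nM. LIMK1, the kinase that inactivates cofilin below ROCK, had 31.1, 37.5 and 41.5 CPM and 0.41 [0.26, 0.57]. RHOB was the 1 gene of the list that was 2-fold higher at 0.5 nM, from 25, 42 and 23 counts, and it had 0.23 [-0.63, 1.13] at 1.5 nM. Of 10 other genes for RhoA activators, 9 were measured and 3 were 25% higher and 0 lower at 1.5 nM, beside 12.0% and 8.96% of all genes. NET1, at -0.3168 [-0.42, -0.21], was just short of the lower limit, and ARHGEF18 had -0.28 [-0.35, -0.20]. ARHGEF3 had 39.4, 56.3 and 50.4 CPM, log2 ratios of 0.51 [0.38, 0.65] and 0.36 [0.22, 0.49]. PLEKHG5 had 23, 24 and 49 counts and a log2 ratio of 1.38 [0.72, 2.25] at 1.5 nM, against 0.34 on the TPM scale.

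HDAC6 (ENSG00000094631) encodes the deacetylase of alpha-tubulin, a cytoplasmic enzyme that also acts on cortactin and on the transport of misfolded protein. It had the highest ratio of the 10 genes in both comparisons with the control. The counts of 764, 686 and 741 equal 34.7 CPM in the untreated cells, 41.5 CPM at 0.5 nM and 43.6 CPM at 1.5 nM. Both treated libraries were above the control, with intervals that did not overlap it, and the intervals of the treated libraries overlapped each other. The log2 ratios were 0.26 [0.11, 0.41] and 0.33 [0.18, 0.48], and between the doses 0.07 [-0.08, 0.22]. The value of 1.26-fold at 1.5 nM is at the edge of the limit, which is 0.3219 on the log2 scale. The log2 ratio was 0.3155 from TPM and 0.2948 with the GC trend removed, both below it. Among genes of 30 or more CPM, 96.9% had a lower ratio at 0.5 nM and 96.1% at 1.5 nM.

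**Figure D4:**
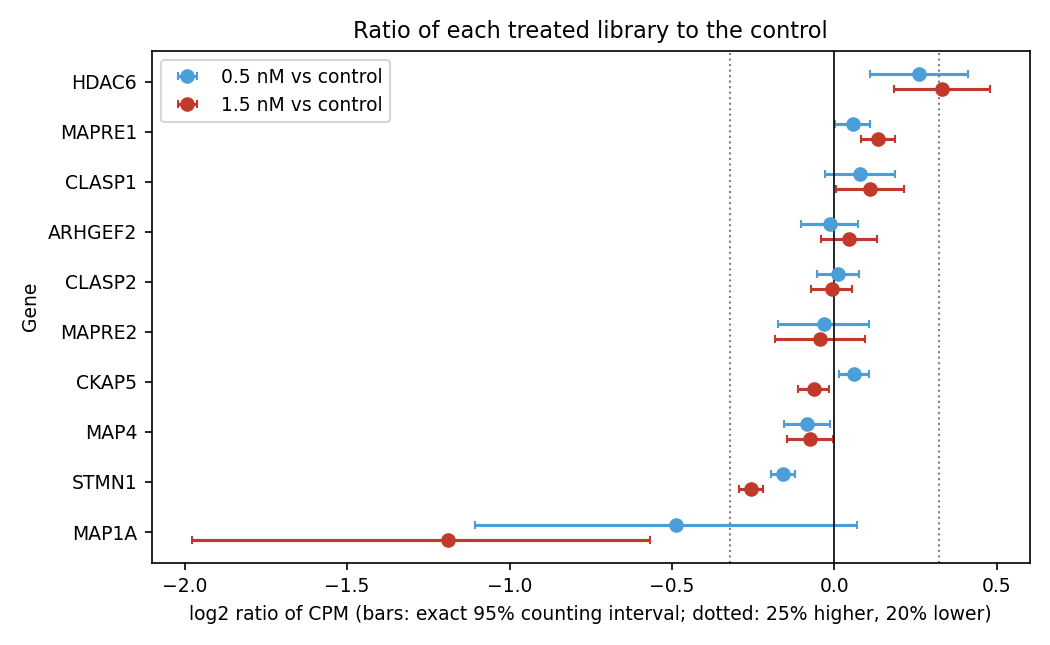
Log2 ratio of CPM of each treated library to the control for the 10 genes (0.5 nM blue, 1.5 nM red), with exact 95% counting intervals and dotted lines at 25% higher and 20% lower. The interval of HDAC6 lies above 0 and that of STMN1 below 0 at both doses, and the interval of MAP1A lies below 0 at 1.5 nM.

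The genes nearest to HDAC6 in both ratios, among 3326 genes of whole counts and similar level, were PRMT2, ALDH3B1, CXCR2, RNF44 and USP3, at distances of 0.0112 to 0.0212 over 3 libraries. PRMT2, an arginine methyltransferase gene, had 0.26 and 0.32, and USP3, a deubiquitinase gene, had 0.24 and 0.33. Of the 9 other deacetylase genes measured, 2 were 25% higher and 1 lower at 1.5 nM, beside 12.0% and 8.96% of all genes, with a median of 0.03. HDAC7 had 17.7, 18.5 and 23.5 CPM and 0.41 [0.21, 0.62]. HDAC9 was higher at 0.5 nM and lower at 1.5 nM, with 166, 182 and 100 counts and log2 ratios of 0.54 [0.24, 0.86] and -0.35 [-0.73, 0.01]. SIRT2, the other deacetylase of tubulin, had 57.3, 51.7 and 63.8 CPM, and ATAT1, the enzyme that adds the acetyl group, had 11.2, 8.96 and 9.30 CPM with log2 ratios of -0.32 [-0.63, -0.02] and -0.27 [-0.57, 0.02]. SIRT2 and ATAT1 were named for these roles after their values were seen. Of 11 tubulin modifying genes measured, 0 were past either limit at 0.5 nM and 1 was higher at 1.5 nM, beside 12.0% of all genes. It was TTLL1, of the tubulin ligase-like family, with 0.37 [0.04, 0.71]. AGTPBP1, which encodes an enzyme that trims glutamate from tubulin, had 0.31 [0.20, 0.42].

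**Figure D5:**
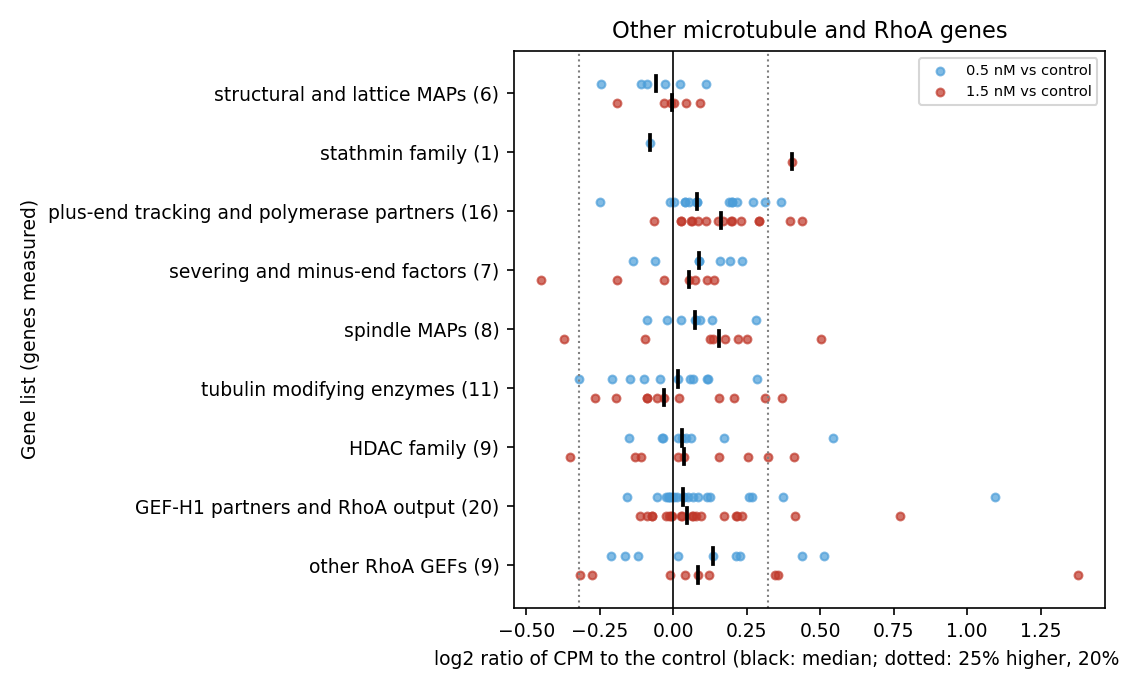
Log2 ratio of CPM to the control for the 87 measured genes of 9 related lists (0.5 nM blue, 1.5 nM red, black bars the median of each list, dotted lines 25% higher and 20% lower). List medians at 1.5 nM lie between -0.03 and 0.16 except for the stathmin family, which is 1 gene.

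Over all 9 lists together, 87 of 110 genes were measured. At 0.5 nM 6.90% of them were 25% higher and 0 were lower, and at 1.5 nM 13.8% were higher and 3.45% lower. Of all genes 7.26% were higher and 4.52% lower at 0.5 nM, and 12.0% were higher and 8.96% lower at 1.5 nM. Beside this background the listed genes had a like share higher and a smaller share lower, which was not tested. The reading depends on the background, since among genes of 30 or more CPM only 4.16% were higher and 5.57% lower at 1.5 nM. The listed genes were not counted apart at that minimum, which many of them pass. The medians over the 87 genes were 0.05 at 0.5 nM and 0.07 at 1.5 nM.

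Last, both treated libraries were compared with each other. No member was 25% higher at 1.5 nM than at 0.5 nM, where 8.46% of all genes were, and 1 was lower, MAP1A, where 7.11% were. Counting intervals lay below 0 for STMN1 and CKAP5 and above 0 for MAPRE1, with 0.08 [0.02, 0.13]. Of the 10 genes, 9 lay within the middle 50% of all genes. Among genes of 30 or more CPM, CKAP5 lay outside it, with 22.5% below. These 3 comparisons share libraries, so their values are given side by side and not as repeats of each other.

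In the annotation of the deposited table, 9 of the 10 genes carry the term microtubule binding. The exception is STMN1. The term microtubule plus-end binding is given to 5, CKAP5, MAPRE1, MAPRE2, CLASP1 and CLASP2, and their log2 ratios at 1.5 nM ran from -0.06 to 0.13.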

How the data were processed

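RNA-seq was done on 3 libraries of MV-4-11 cells, 1 per group, from polyadenylated RNA, per the labels' protocols. The authors deposited estimated counts, not normalised, and TPM values for 20332 genes. The tools listed are StringTie 1.3.1, HISAT2, fastp 0.18.0, edgeR and DESeq2, per the submitters' processing notes. Which step each did, and on which genome build and gene models, is not given in the sources used here. The table prints no doses, and columns numbered 0, 1 and 2 were taken for untreated, 0.5 nM and 1.5 nM cells.

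Counts were rounded, and 11322 genes averaging at least 1 CPM were kept. TMM factors (edgeR 4.0.16, R 4.3.3) were 0.987, 1.005 and 1.008. Log2 CPM used a prior count of 2. Intervals of ratios are Clopper-Pearson and those of levels exact Poisson, at 95%. They cover counting error only, since 1 library per group shows no spread between libraries. No molecular identifiers are named, so repeated copies of a molecule may be counted and the intervals may be too narrow. With 1 library per group no test was run. The steps were run on simulated counts that held counting error alone, which checks the arithmetic and not the spread between libraries. All 10 members had whole counts. GC content came from the longest GENCODE 29 transcript (99.4% of genes kept). Python 3.11.15, scipy 1.17.1 and statsmodels 0.14.6 were used.

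Named genes were all members, the 2 measured genes of each list with the largest absolute log2 ratio at 1.5 nM, and the 5 whole-count genes of a mean CPM within 2-fold that lie nearest to the members with the lowest and highest ratio. Markers were taken by list: all 10 of the epithelial and adherent list are named, and of the other lists MS4A1, at 0 throughout, LYZ and CD14. LYZ and CD14 were chosen after their values were seen. Relatives and partners named beside these (MAP1B, MAPRE3, STMN2, STMN4, RHOA, RHOB, NET1, ARHGEF18, SIRT2, ATAT1) were chosen after their values were seen. Members and lists were chosen with earlier results of these data known.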

Additional observations from a re-analysis of the deposited data

How the results depend on the processing

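No paired analysis was possible because each group is 1 library, and for the same reason no library could be left out. Each ratio of the 10 genes was recomputed with DESeq2 size factors, total counts, a prior count of 0.5, deposited TPM and the GC trend removed; TPM was also taken without its pseudocount, a choice made after seeing the data. Of these values 156 stayed within the main counting interval and 24 moved outside it, all 24 under TPM or GC removal. The other settings change the ratios so little that a move was unlikely. Under TPM 11 ratios moved and 19 stayed, and the same 11 moved without the pseudocount, so they are counted again. Under GC removal 2 moved and 28 stayed. No member value at least 25% higher or 20% lower changed sign. TPM raised the median of all genes by 0.06 at 0.5 nM and that of the members to 0.11, with or without the pseudocount. Either way 0 members were 25% higher at 1.5 nM under TPM and 2 were 20% lower between the doses. With the pseudocount 0 members were 2-fold lower at 1.5 nM and without it 1 was, MAP1A, so that call is lost to the pseudocount. With the GC trend removed 0 were 25% higher at 1.5 nM. The cause of the other moves was not tested.

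Counts of all genes past 2-fold moved with the filter from 60 higher and 26 lower at 0.5 nM, 166 and 65 at 1.5 nM, and 54 and 56 between the doses. Without a filter they were 537 higher and 263 lower at 0.5 nM, 727 and 629 at 1.5 nM, and 541 and 869 between the doses. With a mean of 5 or more CPM they were 15 and 1, 42 and 16, and 4 and 13 in that order. Whole-count genes alone gave 8 lower at 0.5 nM, 36 lower at 1.5 nM, and 32 higher and 36 lower between the doses. TPM gave 99 higher at 0.5 nM. Few counts limit MAP1A most, with 24 counts at 1.5 nM.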

Other observations

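Some relatives of the 10 genes also had unlike ratios by counts and by TPM, chosen after their values were seen. HDAC9 had a log2 ratio of -0.35 by counts and -0.91 by TPM at 1.5 nM, and 0.54 and 0.12 at 0.5 nM. KATNAL1 had 0.19 by counts and 0.54 by TPM at 0.5 nM. MAP1S had -0.24 by counts and -0.49 by TPM at 0.5 nM.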
